A study of Rattus norvegicus with 12 samples.

Results

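Circular RNAs (circRNAs) hosted by enzymes of drug and steroid metabolism were described in rat liver. The hosts were chosen by name, with earlier results of these data known. They were the table entries whose host symbol begins with the stem of a cytochrome P450 (Cyp), UDP-glucuronosyltransferase (Ugt), sulfotransferase (Sult), glutathione S-transferase (Gst), flavin-containing monooxygenase (Fmo), carboxylesterase (Ces), aldehyde dehydrogenase (Aldh), aldo-keto reductase (Akr) or alcohol dehydrogenase (Adh). Entries that named their host only by an Ensembl identifier were added where they shared a transcript with such a host. The hosts Cyp2c7, Cyp2c6v1, Ugt2b35, Ugt2b15, Sult1c3 and Aldh4a1 were left out by name and not by a cut on reads. This gave 71 host genes of 6501 in the table (1.09%), with 293 of its 21068 back-splice junctions and 2985 of its 284534 back-splice reads (1.05%). The left-out Cyp2c7 alone held 5298 reads.

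All groups were liver of wild-type Wistar rats with induced diabetes. The rats had eaten a high-fat diet (60% of calories) for 4 weeks. After a 16 h fast they received streptozotocin, which destroys insulin-producing beta cells, at 35 mg/kg. Animals above 16.7 mmol/L fasting glucose 3 days later entered the study. The groups were sham operation (sham, 5 libraries), sleeve gastrectomy sampled at 3 months (SG, 5 libraries), an operation that removes much of the stomach, and return of diabetes after that operation (relapse, 2 libraries). Age was not given in the sources used here, nor when sham and relapse livers were taken, and no group was free of diabetes. The labels do not say that each library is a separate animal, so a p-value reflects how these samples vary, which may be technical. RNA had been depleted of ribosomal RNA and treated with RNase R, which digests linear RNA.

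Hepatocytes clear foreign and steroid compounds in steps. Cytochrome P450s, flavin monooxygenases, esterases, dehydrogenases and reductases first oxidise, split or reduce the compound, and transferases then attach glucuronic acid, sulfate or glutathione so that it can be excreted. Many of these enzymes are encoded in tandem gene clusters, and several rat members, such as Cyp2c11, are known for levels that differ between the sexes. A circRNA forms when a splice donor is joined to an acceptor that lies upstream of it. Its level is that of the circle and not of the host's mRNA.

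The libraries held 18176 to 37229 back-splice reads. Levels are given as reads and as RPM (reads scaled to a library of 1000000 back-splice reads). A total of 0 reads in a group allows up to 27.5 RPM in sham, 25.05 in SG and 53.9 in relapse (3 reads over the group, counting error only). Of the hepatocyte marker hosts, 8 of 10 had reads, between 7075 and 14855 RPM in sum per library, while Apoa1 and Ttr were at 0. All cholangiocyte and all pancreas and gut markers were at 0. Of the other lists, 2 of 6 Kupffer cell, 3 of 7 stellate cell, 4 of 6 endothelial and 1 of 6 lymphocyte and granulocyte markers had reads. Their summed levels were 0.0 to 418 RPM in sham, 0.0 to 786 in SG and 0.0 to 242 in relapse for Kupffer cells. For stellate cells they were 0.0 to 232, 0.0 to 246 and 80.6 to 217 RPM, and for endothelium 275 to 752, 284 to 950 and 487 to 806 RPM. In whole tissue, fewer cells of a type and less RNA per cell cannot be told apart.

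The reads were unevenly spread over the enzymes. The 5 most-read hosts held 41.6% and the 20 most-read hosts 82.0% of the enzyme reads, whereas 15 hosts had a single read and 23 had under 5. Cytochrome P450s gave 29 hosts and 52.3% of the reads. The 2 carboxylesterases gave 14.1%, 14 aldehyde dehydrogenases 9.08%, 4 sulfotransferases 6.26% and 9 aldo-keto reductases 5.16%. The 7 glutathione S-transferases held 4.76%, the 2 alcohol dehydrogenases 4.69%, and Ugt1a3, the only Ugt host, 0.067% with 2 reads. Not every host taken by name is a drug-metabolising enzyme: Aldh1l1 and Aldh1l2 act on folate, Aldh6a1 acts in valine breakdown and Aldh7a1 in lysine breakdown.

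**Figure D1:**
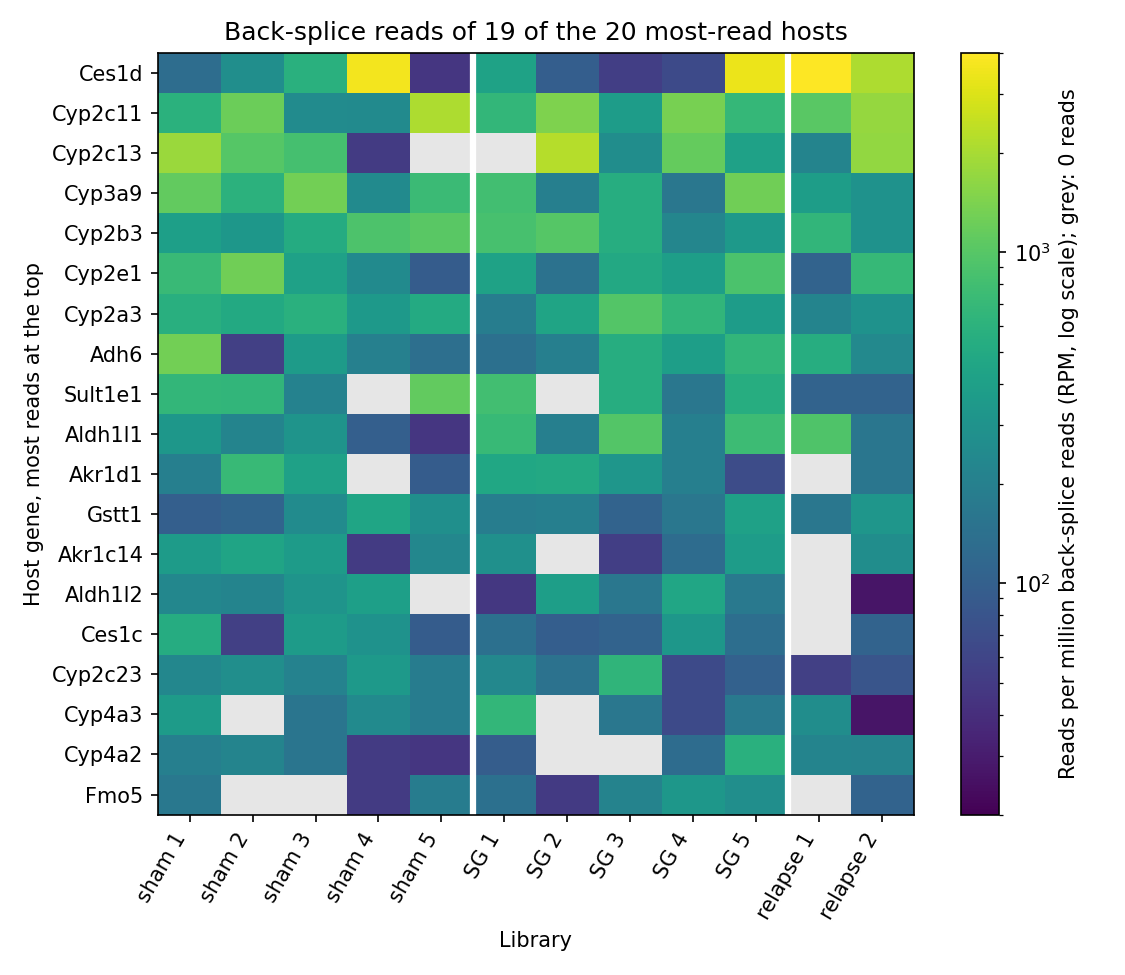
Level of 19 of the 20 most-read enzyme hosts (rows, most reads at the top) in each library (columns, with white lines between sham, SG and relapse), as RPM on a logarithmic colour scale and grey for 0 reads. Cyp2c11, Cyp3a9, Cyp2b3, Cyp2e1 and Cyp2a3 had reads in all 12 libraries, while Ces1d was bright in 4 libraries.

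Circles of the Cyp2 family led the P450s with 1098 reads over 11 hosts, of which the Cyp2c subfamily, oxidases of drugs, steroids and fatty acids, gave 661 over 6 hosts. Cyp2c11, a steroid hydroxylase and major P450 of adult male rat liver, had 289 reads and was detected in every library. It had 18, 22, 5, 5 and 45 reads in sham 1 to 5, 14, 29, 7, 41 and 20 in SG 1 to 5, and 19 and 64 in relapse 1 and 2. Group levels were 882 ± 781 RPM in sham (SD, n = 5), 898 ± 460 in SG (n = 5) and 1374 ± 488 in relapse (n = 2). Libraries of 1 group differed more than the groups did, and SG and sham overlapped over most of their range.

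The Cyp2c11 circles shared a start. Of its reads, 97.2% began at position 257978614 of chromosome 1, the start of exon 3, and ended at different exons downstream. The circle of exons 3 to 5 (circRNA2183, chr1:257978614-257990044, plus strand) had 122 reads, that of exons 3 to 7 (circRNA2185, to 258003138) had 118 and that of exons 3 to 6 (circRNA2184, to 257999646) had 37. The first 2 were detected in all 12 libraries. Exon numbers and positions are those of the deposited table.

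Cyp2c13, a neighbouring steroid-metabolising P450, had 253 reads by this rule and varied most among the Cyp2 hosts with over 100 reads. It had 54, 18, 16, 1 and 0 reads in sham, 0, 45, 5, 35 and 12 in SG, and 4 and 63 in relapse. The levels were 732 ± 740, 808 ± 892 and 954 ± 1043 RPM, so that the SD exceeded the mean in each group. Its most-read junction joined exons 6 and 7 (circRNA5449, chr1:258820878-258830654, minus strand; 146 reads). The same junction had 12 more reads in an identifier entry that the rule did not join (circRNA8135). Cyp2c23, which forms epoxides of arachidonic acid, had 56 reads, 50 of them in 1 circle of exons 6 and 7 (circRNA2199). It had 2 to 12 reads in each sham and SG library, and 1 and 3 reads in relapse.

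The table gave a further set of Cyp2c13 junctions under the Ensembl identifier of the gene, without a transcript in common with the symbol entries. Joined by the gene record as well, Cyp2c13 had 960 reads and became the most-read host. A circle of 3 exons (circRNA2837, chr1:258796803-258821065, minus strand) held 550 of them. The per-library reads were then 162, 115, 40, 15 and 21 in sham, 15, 153, 18, 146 and 22 in SG, and 17 and 236 in relapse. Sham 1, sham 2, SG 2, SG 4 and relapse 2 were high under both joins. The sulfotransferase Sult2a2 went from 14 to 466 reads by the same step, and is described with its family.

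Cyp2b3 and Cyp2a3 lie in 1 cluster on chromosome 1 and were the steadiest of the P450s with over 100 reads. Cyp2b3, a member of the subfamily known for induction by phenobarbital, had 12, 6, 10, 18 and 22 reads in sham, 18, 20, 10, 7 and 10 in SG and 12 and 11 in relapse. Its leading circle held exons 2 to 4 (circRNA1991, chr1:83190919-83192827, plus strand; 53 reads). Cyp2a3, a Cyp2a subfamily P450, had 17, 9, 11, 7 and 11 reads in sham, 4, 9, 18, 20 and 11 in SG and 4 and 11 in relapse. Its leading circle held exons 7 to 9 (circRNA1994, chr1:83719516-83720939, plus strand; 41 reads) and was detected in all 12 libraries. The coefficient of variation over the 12 libraries was 48.6% for Cyp2b3 and 45.5% for Cyp2a3, against 61.5% for Cyp2c11 and 96.3% for Cyp2c13.

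Cyp2e1, which oxidises ethanol, acetone and other small molecules, was mainly an intronic host: 68.7% of its 147 reads came from circles that the table classes as intronic. The leading one (ciRNA128, chr1:213521114-213521880, plus strand) had 79 reads in 10 libraries. Cyp2e1 had 22, 23, 8, 5 and 2 reads in sham, 9, 3, 9, 12 and 26 in SG, and 2 and 26 in relapse. In each group 1 library had 3 reads or fewer and another had 23 or more.

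Cyp3a9, a P450 of the subfamily that oxidises steroids and many drugs, had 182 of the 202 Cyp3a reads. It had 34, 11, 25, 5 and 16 reads in sham, 17, 4, 10, 5 and 37 in SG, and 7 and 11 in relapse. Levels were 805 ± 418 RPM in sham, 594 ± 459 in SG and 337 ± 59.0 in relapse, and both relapse libraries lay within the range of SG and of sham. A pair of junctions on the minus strand made up 92.3% of the reads. They shared their lower coordinate, 19088215 of chromosome 12, which is the downstream end on that strand, and differed in the upper one. The shorter, of 2 exons (circRNA2510, to 19089820, minus strand), had 103 reads with 7 and 11 in relapse. The longer, of 6 exons (circRNA7977, to 19099363), had 65 reads: 11, 5, 13, 5 and 0 in sham, 8, 4, 4, 0 and 15 in SG, and 0 in both relapse libraries.

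The fatty acid hydroxylases of the Cyp4 family had few reads. Cyp4a hosts, whose genes are known targets of the receptor PPARα, had 121 reads over 4 hosts. Cyp4a3 had 53 and Cyp4a2 had 50, and each was at 0 in 2 libraries. Cyp4a3 had 14 of its 24 SG reads in SG 1, and Cyp4a2 had 17 of its SG reads in SG 5 against 2, 0, 0 and 4 in the others. The 5 Cyp4f hosts had 13 reads in sham, 39 in SG and 9 in relapse, with no Cyp4f host above the filter for testing.

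Cyp7a1, cholesterol 7α-hydroxylase, which opens the main route from cholesterol to bile acids, had 24 reads, 23 of them intronic. They fell as 8, 0, 8, 3 and 0 in sham, 1, 0, 0, 0 and 4 in SG, and 0 in both relapse libraries. The sham libraries 2 and 5 were at 0 as well, so the groups overlapped.

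Among the other oxidases, Fmo5, a flavin monooxygenase, had 40 reads, 38 of them in 1 circle of 3 exons (circRNA6257, chr2:199803874-199807217, plus strand). It had 5, 0, 0, 1 and 4 in sham, 3, 1, 4, 10 and 8 in SG and 0 and 4 in relapse. All 5 SG libraries had reads, and SG and sham overlapped.

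Ces1d, a carboxylesterase of lipid and drug esters, was the most-read host with 363 reads, and its reads lay in few libraries. It had 4, 5, 11, 73 and 1 reads in sham, 9, 2, 1, 2 and 99 in SG, and 79 and 77 in relapse. Of these, 293 belonged to 1 intronic entry (ciRNA239, chr19:15149359-15161377, plus strand). That entry had 67 reads in sham 4, 96 in SG 5, 63 and 67 in relapse 1 and 2, and 0 in the remaining 8 libraries. A second entry of Ces1d classed as intronic (ciRNA240, chr19:15151107-15207439) had 3 reads in sham 2, 0 in SG, and 8 and 10 in relapse. Its span contains an exonic circle given to Ces1c (circRNA14538, 15165611-15172667), so its class and host are uncertain. The host of ciRNA239 is uncertain too. It lies between that Ces1c circle and another (circRNA18527, 15094310-15106512), while the symbol entries of Ces1d began at 15222381 or above. Identifier entries held 358 of the 363 Ces1d reads. Ces1d levels were 937 ± 1535 RPM in sham, 807 ± 1452 in SG and 3172 ± 1561 in relapse. The relapse libraries were above 8 of the 10 other libraries, and sham 4 and SG 5 lay between them.

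Ces1c, its neighbour and also a carboxylesterase, did not share that pattern, with 57 reads and 16, 1, 7, 6 and 2 in sham, 3, 2, 2, 10 and 4 in SG, and 0 and 4 in relapse. The leading Ces1c circle (circRNA3820, 34 reads) and a Ces1d intronic entry (ciRNA927, 25 reads) began at the same position, 15094310 of chromosome 19. The 2 genes are close copies in tandem, and how the authors assigned reads between such copies is not given in the sources used here. This holds also for the Cyp2c, Cyp2a, Cyp2b, Cyp3a, Cyp4a, Cyp4f, Akr1c, Sult and Gst clusters. Of the enzyme reads, 72.1% came from hosts with another of these hosts within 1 Mb.

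**Figure D2:**
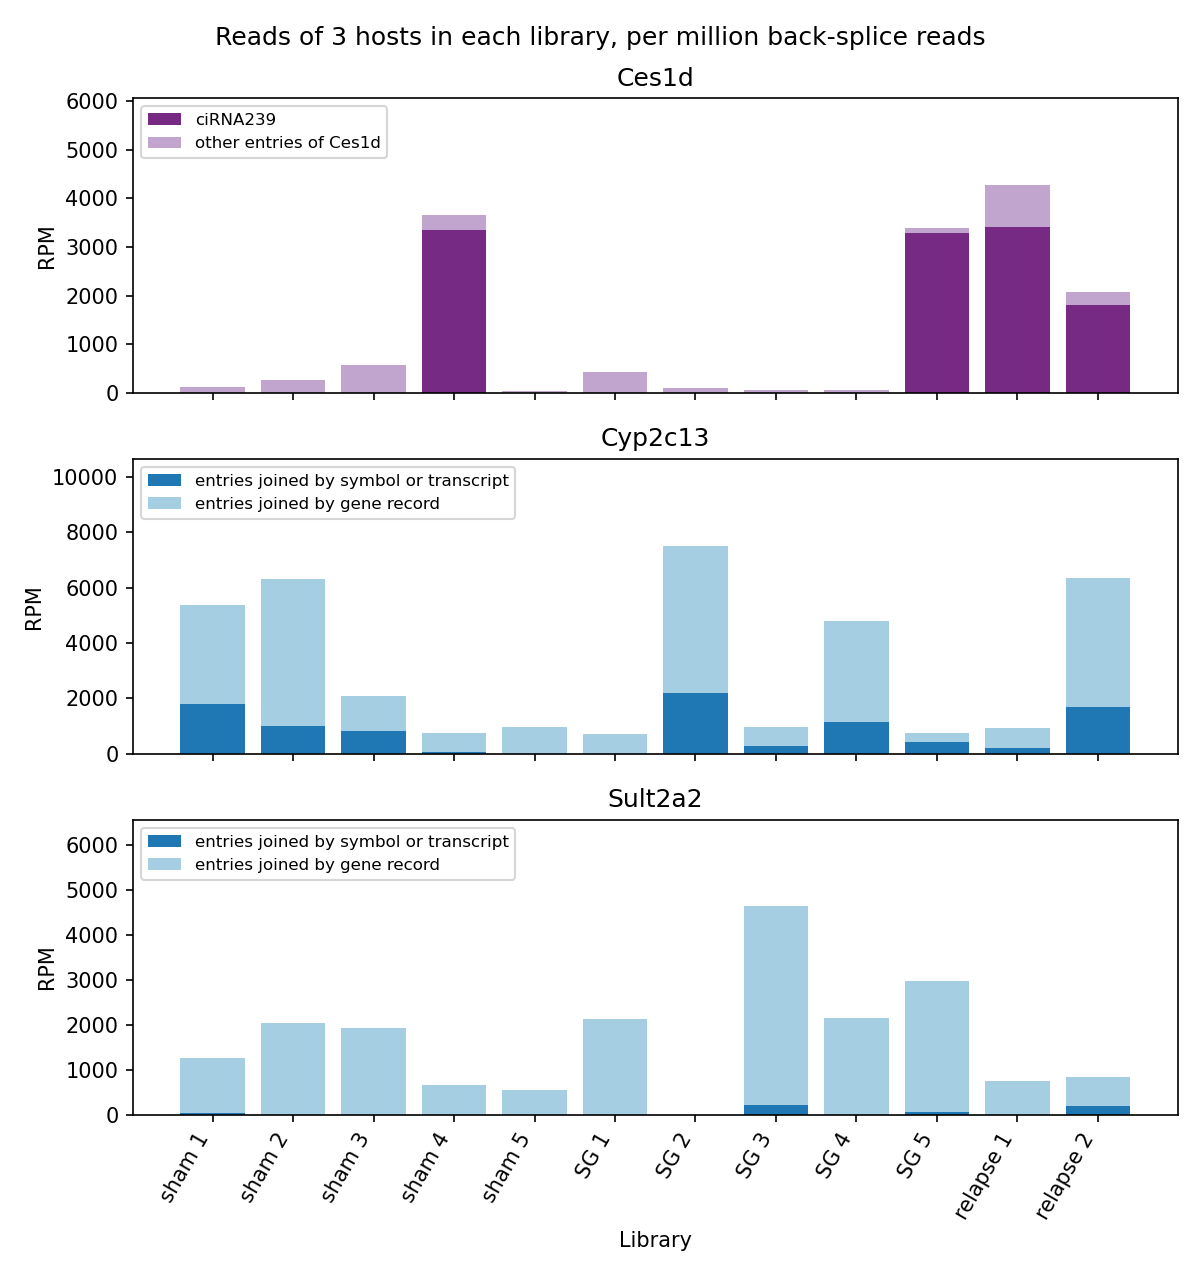
Levels of Ces1d, Cyp2c13 and Sult2a2 in the 12 libraries as stacked bars in RPM, with the Ces1d bars split into ciRNA239 and other entries and the others into entries joined by symbol or transcript and entries added by the gene record. ciRNA239 makes up most of Ces1d in sham 4, SG 5 and both relapse libraries and is at 0 elsewhere, and the gene record adds most of Cyp2c13 and nearly all of Sult2a2.

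Adh6, an alcohol dehydrogenase, had 121 reads, and 39 of its 54 sham reads came from sham 1. It had 39, 1, 7, 4 and 3 in sham, 3, 4, 10, 12 and 19 in SG and 10 and 9 in relapse. The leading circle of 4 exons (circRNA2766, chr2:243675937-243680311, plus strand) had 90 reads, written in the table as 2 entries.

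Aldh1l1, the cytosolic 10-formyltetrahydrofolate dehydrogenase, led the aldehyde dehydrogenases with 111 reads. It had 10, 4, 6, 2 and 1 in sham, 15, 4, 18, 6 and 22 in SG and 17 and 6 in relapse. Levels were 202 ± 126 RPM in sham, 565 ± 351 in SG and 541 ± 537 in relapse. SG 1, SG 3 and SG 5 were above all sham libraries, whereas SG 2 and SG 4 lay within the sham range. The circle of exons 2 to 4 (circRNA1528, chr4:123551476-123555378, minus strand) gave 84.7% of the reads and was detected in all 12 libraries. Aldh1l2, its mitochondrial counterpart, had 57 reads: 7, 4, 6, 8 and 0 in sham, 1, 8, 3, 14 and 5 in SG, and 0 and 1 in relapse. Sham 5 and SG 1 were as low as the relapse libraries in reads.

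Akr1d1, the 5β-reductase of bile acid and steroid hormone metabolism, had 69 reads in 8 junctions. It had 6, 13, 8, 0 and 2 in sham, 10, 10, 6, 6 and 2 in SG and 0 and 6 in relapse. Of its reads, 82.6% ended at 1 position, 65132822 of chromosome 4. Akr1c14, a hydroxysteroid dehydrogenase, had 64 reads, with 290 ± 154, 169 ± 158 and 134 ± 190 RPM in sham, SG and relapse. Both hosts were at 0 in relapse 1.

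Among the conjugating enzymes, Sult1e1, the estrogen sulfotransferase, had 114 reads. It had 20, 12, 4, 0 and 24 in sham, 17, 0, 10, 5 and 16 in SG and 2 and 4 in relapse. Levels were 529 ± 436, 411 ± 324 and 108 ± 0.582 RPM. A circle of exons 4 to 6 (circRNA3738, chr14:22079908-22085548, plus strand; 44 reads) was the most read of 7 junctions. Both relapse libraries lay above sham 4 and SG 2, where no read was found.

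Sult2a2, a sulfotransferase of hydroxysteroids such as dehydroepiandrosterone, had 14 reads by the rule. With its identifier entries it had 38, 37, 37, 13 and 12 reads in sham, 45, 0, 86, 66 and 87 in SG, and 14 and 31 in relapse. Of these 466 reads, 445 came from 1 identifier entry (circRNA2463, chr1:76515444-76555713, minus strand). That entry does not overlap the junction of the symbol entry (circRNA5185, 76572723-76604218). The joined levels of Sult2a2 were 1286 ± 690 RPM in sham, 2381 ± 1676 in SG and 795 ± 52.9 in relapse. In that joined table its log2 fold change of SG over sham was 0.89 (SE 0.76, edgeR FDR 0.997) and of relapse over SG -1.60 (SE 1.10, FDR 1.0).

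Gstt1, a theta-class glutathione S-transferase, was the most-read Gst host and had 1 junction only, of exons 3 and 4 (circRNA970, chr20:13805913-13814042, plus strand). Its 67 reads were found in all 12 libraries, with 3, 2, 5, 9 and 6 in sham, 4, 4, 2, 5 and 12 in SG and 3 and 12 in relapse. Levels of 240 ± 144, 214 ± 116 and 242 ± 113 RPM differed by less than the spread within groups. The alpha-class Gsta6 had 36 reads: 1, 0, 1, 3 and 0 in sham, 6, 0, 3, 8 and 5 in SG and 2 and 7 in relapse. The mu-class Gstm2 had 25 reads, 8 of them in sham 1 and 5, 6 and 6 in SG 1, SG 3 and SG 5, with 0 in the other 8 libraries.

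By shape, the enzyme circles were much like the rest of the table, except for their intronic share and exon 2. Of their 293 junctions, 222 were classed as exonic and 71 as intronic. Of the exonic ones, 68.0% held 2 to 4 exons, against 67.6% of those of the whole series, and 58.7% of all the enzyme junctions were found in 1 library only, against 60.2%. Intronic circles gave 21.6% of the enzyme reads and 6.10% of those of the series, and without Ces1d the enzyme share was 10.9%. Among exonic symbol entries, 22.3% started from exon 2, against 22.1% in the series, yet these held 19.1% of the enzyme reads against 37.1%. These shares are descriptions, since junctions of 1 host are not independent.

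The first question of the design was whether the enzymes' circles differed after sleeve gastrectomy. As a whole they took 1.04 ± 0.146% of the reads in sham (SD, n = 5), 1.01 ± 0.243% in SG (n = 5) and 1.07 ± 0.0344% in relapse (n = 2). The highest shares, 1.30% in sham 1 and 1.43% in SG 5, lay in different groups. Symbol entries alone gave 0.750, 0.738 and 0.656%, and the join by gene record gave 1.41, 1.46 and 1.42%.

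**Figure D3:**
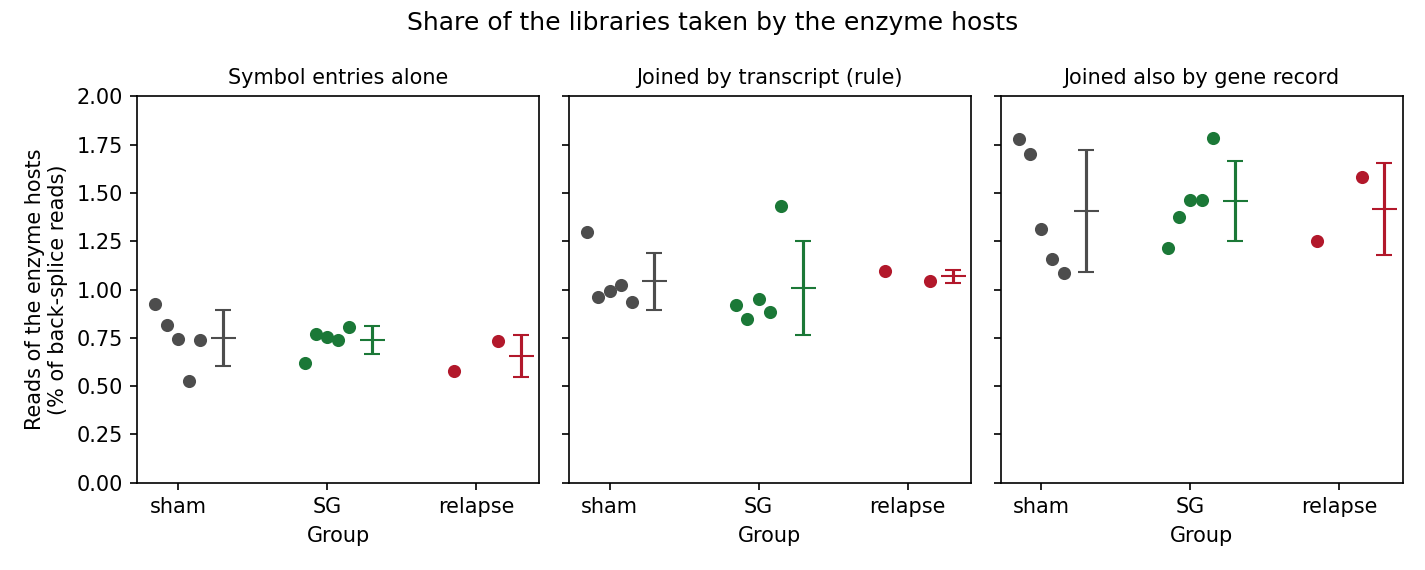
Share of each library's back-splice reads held by the enzyme hosts (points), with group mean and SD beside them, for symbol entries alone, for the rule used here and with the gene record as a further join. The 3 groups overlap in each panel, and the way entries are joined shifts all groups.

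Single hosts were tested with edgeR's quasi-likelihood test and Benjamini-Hochberg adjustment over 1368 hosts, of which 24 were enzymes. These 24 held 85.5% of the enzyme reads, and the other 47 did not pass the filter. It asks for a level reached in as many libraries as the smallest group has, besides a total. Thus Cyp4a2 with 50 reads was not tested, and Cyp7a1 with 24 was. A host or junction at or near 0 in 1 group could pass only through the others. For these, a higher level in another group was a condition of being tested. The 3 comparisons share groups and are not independent of each other.

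In SG against sham, Aldh1l1 and Gsta6 had more reads in SG and Cyp7a1 had fewer, and none of these differences passed the threshold. The Aldh1l1 log2 fold change was 1.42 (SE 0.59, FDR 0.994 by edgeR), with a ratio of pooled levels of 2.57 (95% counting interval 1.58 to 4.34). The Gsta6 log2 fold change was 1.83 (SE 1.24, FDR 0.994). Its 22 SG reads against 5 sham reads gave a ratio of 4.01 (1.48 to 13.5). With 1 library left out the ratio ran from 3.22 (1.19 to 10.9) without sham 5 to 8.18 (2.01 to 71.8) without sham 4. Cyp7a1 had 19 reads in sham and 5 in SG, a ratio of 4.17 (1.51 to 14.3), and its log2 fold change was -1.96 (SE 1.46, FDR 0.994). Without SG 5, 1 read was left in SG and the ratio was 15.8 (2.51 to 656), and without sham 3 it was 2.93 (0.940 to 10.8), an interval that includes 1. Cyp7a1 passed the filter for testing only through sham libraries, so a high level in sham was a condition of its being tested.

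No enzyme host passed an FDR of 0.05 in this comparison, where 0.146% of all tested hosts did (2 of 1368). DESeq2 and limma-voom called 0 of the enzymes as well. At an unadjusted p under 0.05, 1 of the 24 was counted, against 3.29% of all hosts. Of the 24, 11 had a log2 fold change above 0 and 13 below, where 51.5% of all tested hosts were above and 48.5% below, with a median of -0.11 beside 0.03 for all 1368. On the authors' SRPBM scale the split was 14 above and 10 below and the median 0.15, and with limma-voom the median was 0.08. In none of the 24 were SG and sham libraries fully apart, which was so for 0.95% of all hosts.

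In relapse against SG, the hosts with the smallest p were Aldh1l2, Gstm2 and Cyp2a3, all with fewer reads in relapse. Aldh1l2 and Gstm2, at or near 0 in relapse, could pass the filter for testing only through the other groups. For Aldh1l2 the 31 reads in SG and 1 in relapse gave a ratio of 14.4 (2.40 to 588), and a log2 fold change of -3.54 (SE 1.52, FDR 1.0 by edgeR). Without relapse 2 no read was left in relapse and SG was at least 1.59-fold higher. Gstm2, with 17 reads in SG and 0 in relapse, was at least 2.64-fold higher in SG, and without relapse 2 no bound above 1 was left (0.874). Cyp2a3 had 62 reads in SG and 15 in relapse, a ratio of 1.92 (1.08 to 3.64) and a log2 fold change of -1.01 (SE 0.67, FDR 1.0). The lower limit of that ratio fell below 1 without SG 3 (0.881), SG 4 (0.949), relapse 1 (0.915) or relapse 2 (0.888).

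None of the 24 passed the threshold here, where 0.146% of all hosts did, and 1 had an unadjusted p under 0.05, against 4.09% of all. DESeq2 and limma-voom again called 0. Of the 24, 6 lay above 0 and 18 below, where 46.2% of all tested hosts were above and 53.7% below. The median was -0.53 beside -0.07 for all hosts, and -0.31 when Cyp7a1 and Gstm2, at 0 reads in relapse, were set to their bounds. Leaving out 1 library also changed which hosts were tested. The median then ran between -0.27 (22 hosts, without sham 1) and -1.70 (30 hosts, without relapse 2). It was -0.14 over 11 hosts with a minimum count of 10, and -0.87 over all 71 with no filter.

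In relapse against sham, Aldh1l2, Cyp3a9 and Cyp7a1 had the smallest p, again with fewer reads in relapse and again short of the threshold. Aldh1l2 had 25 reads in sham and 1 in relapse, a ratio of 12.8 (2.09 to 524), with a log2 fold change of -3.41 (SE 1.53, FDR 0.845 by edgeR). Without relapse 2 sham was at least 1.41-fold higher. Cyp3a9 had 91 and 18 reads, a ratio of 2.58 (1.55 to 4.55), with a log2 fold change of -1.30 (SE 0.67, FDR 0.856). Without relapse 2 that ratio was 2.20 (1.03 to 5.63). Cyp7a1, with 19 reads in sham and 0 in relapse, was at least 3.23-fold higher in sham, and at least 1.07-fold without relapse 2. As said above, it was tested only because of its level in sham libraries.

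The count past the threshold was 0 of 24, beside 0.0731% of all tested hosts, and it was 0 by DESeq2 and limma-voom too. At an unadjusted p under 0.05 it was 1, against 5.56% of all hosts. The median was -0.61, or -0.56 with Cyp7a1 and Gstm2 at their bounds, beside -0.06 for all hosts. Leaving out 1 library, which changed the hosts tested, moved the median between -0.37 without sham 1 (22 hosts) and -1.62 without relapse 2 (30 hosts). It was -1.18 without relapse 1 (31 hosts). With a minimum count of 10 it was -0.33 over 11 hosts, and with no filter -0.62 over 71. Of the 24, 7 lay above 0 and 17 below, where 46.6% of all were above and 53.4% below. Ces1d had the highest log2 fold change of the 24 in both relapse comparisons, 1.82 over SG (SE 1.55, FDR 1.0) and 1.72 over sham (SE 1.56, FDR 0.983). The reads of sham 4 and SG 5 given above stand beside these values.

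**Figure D4:**
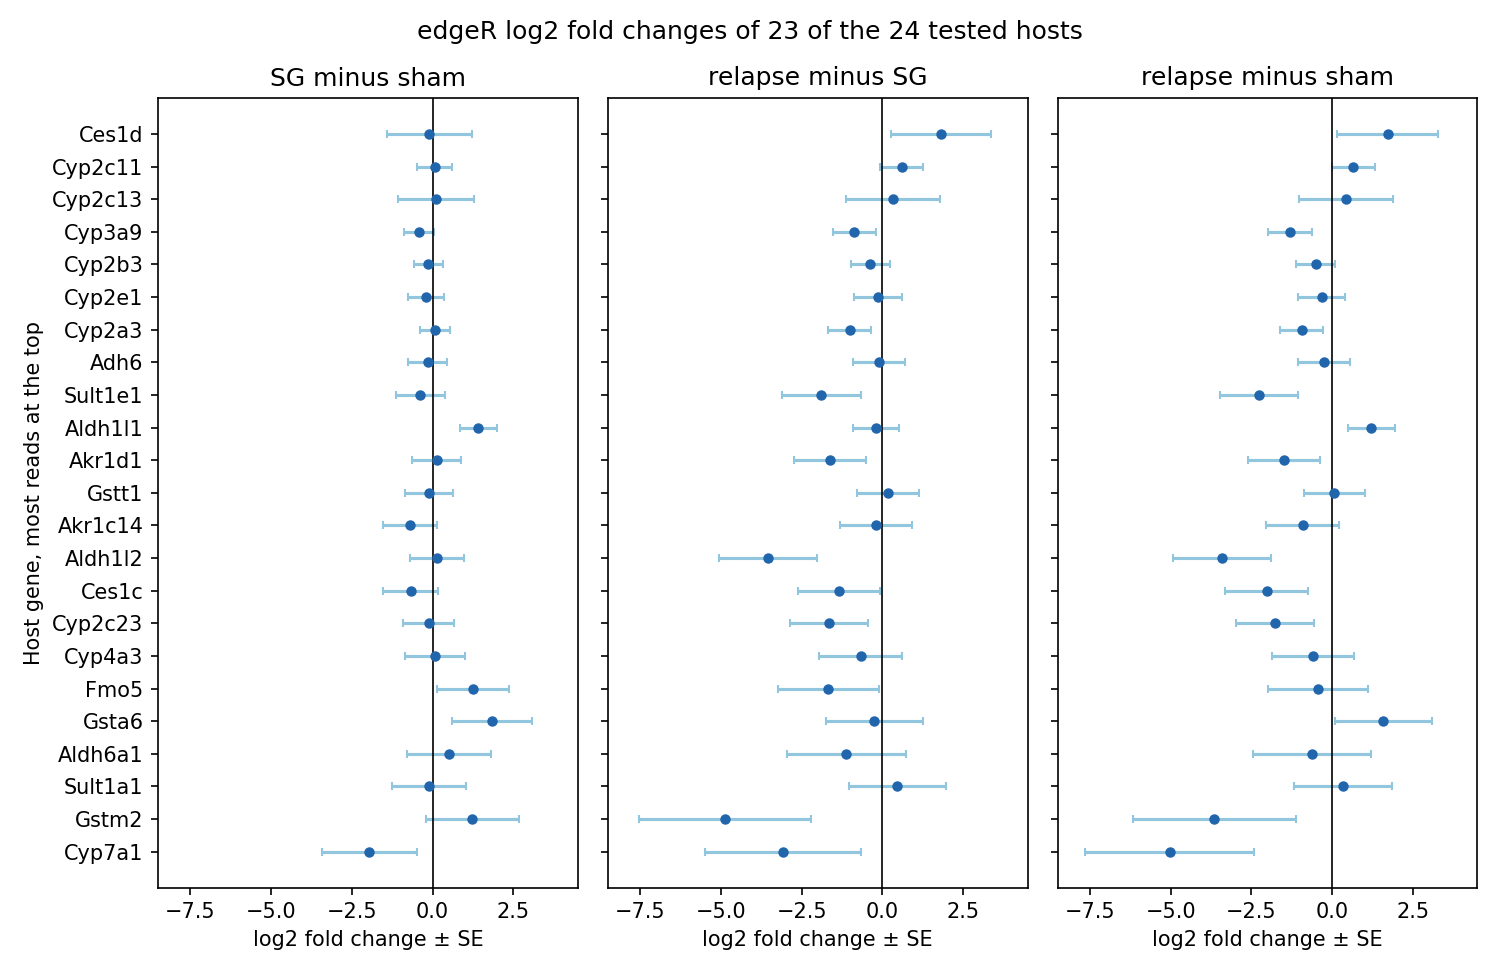
edgeR log2 fold changes (points) with their standard errors (bars) for 23 of the 24 tested enzyme hosts, most reads at the top, in SG minus sham, relapse minus SG and relapse minus sham. None passed the FDR threshold; the values of Cyp7a1 and Gstm2 in the relapse panels come from 0 relapse reads and depend on the fit's prior count.

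Junction by junction, 26 enzyme junctions were among 1519 tested, and none passed in any comparison (0.0% of all tested junctions did). At an unadjusted p under 0.05, 2 were counted in each comparison, against 3.88%, 4.81% and 5.79% of all junctions in SG against sham, relapse against SG and relapse against sham. The circle of Cyp2c13 exon 7 alone (circRNA5448, chr1:258820878-258821065, minus strand) was tested as the sum of 2 entries of that junction. The symbol entry had 0 reads in sham, 6 and 7 in SG 2 and SG 4, and 5 in relapse 2. The 6 reads of relapse 1 stood in an identifier entry outside the rule (circRNA2838). With 0 reads in sham, the junction could pass the filter for testing only through SG and relapse libraries. SG was at least 3.95-fold higher than sham (edgeR FDR 0.996), and at least 2.56-fold without SG 2 or 2.44-fold without SG 4. Relapse was at least 7.18-fold higher than sham (edgeR FDR 0.706). With 1 library left out this bound ran from 4.88 without relapse 1, where only the symbol entry counts, to 11.8 without relapse 2, where only the identifier entry counts.

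The Aldh1l1 circle of exons 2 to 4 had 20 reads in sham and 56 in SG, a log2 fold change of 1.37 (SE 0.61, FDR 0.996 by edgeR). The long Cyp3a9 circle, absent from the relapse reads, was at least 4.81-fold higher in SG (edgeR FDR 0.747) and at least 5.79-fold higher in sham (edgeR FDR 0.700). Without relapse 2 these bounds were 1.59 and 1.92. Absent from relapse, this circle could pass the filter for testing only through SG and sham libraries, so a higher level there was a condition of its being tested. The Ces1d entry ciRNA240, classed as intronic, was at least 12.9-fold higher in relapse than in SG (edgeR FDR 0.747), with 3 reads in sham. It passed the filter for testing only through the relapse libraries, so a high level in relapse was a condition of its being tested. The short Cyp3a9 circle, with the same lower coordinate as the long one, had reads in both relapse libraries.

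Other genes of the pathway were taken from a list of 65 partners and regulators of drug metabolism, such as electron donors of P450s, nuclear receptors and oxidases outside the rule. Of these, 39 had reads, 15 were tested and 0 passed in any comparison. At an unadjusted p under 0.05, 2, 1 and 2 of the 15 were counted in SG against sham, relapse against SG and relapse against sham, where 3.29%, 4.09% and 5.56% of all tested hosts were. Circles of Ppara, the nuclear receptor of fatty acids that regulates Cyp4a genes, stood at 1542 ± 427 RPM in sham, 759 ± 287 in SG and 728 ± 42.1 in relapse. The log2 fold change of SG over sham was -0.96 (SE 0.33, FDR 0.766 by edgeR). That of relapse over sham was -1.09 (SE 0.45, FDR 0.816).

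Aox2, an aldehyde oxidase, stood at 387 ± 392 RPM in sham, 70.8 ± 45.9 in SG and 282 ± 399 in relapse. Its log2 fold change was -2.44 in SG over sham (SE 1.02, FDR 0.994) and 2.10 in relapse over SG (SE 1.21, FDR 1.0). Dhrs3, a retinal reductase, stood at 193 ± 77.3, 273 ± 231 and 13.4 ± 19.0 RPM, with -3.59 in relapse over SG (SE 1.54, FDR 1.0) and -3.13 over sham (SE 1.54, FDR 0.856). A list of 31 other genes of steroid metabolism had 13 with reads and 4 tested: Soat2, Scp2, Hsd17b4 and Hsd17b2. None of these passed in any comparison, and none had an unadjusted p under 0.05.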

How the data were processed

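Back-splice reads were measured in 12 liver libraries (5 sham, 5 SG, 2 relapse). The authors deposited 1 table with, per circRNA, a raw count of back-splice reads per library and a normalised signal called SRPBM, which equals the count times 1 constant per library. Per the submitters' processing notes, cutadapt 1.9, FastQC, TopHat2 2.0.10 and the build Rnor_6.0 were used. No source used here gives the circRNA caller or how reads of near-identical genes were handled. All sample columns were used, and no column was left unmapped.

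The table holds 18175 entries named by symbol and 3701 named by Ensembl identifier or as intergenic. Single reads make up 38.1% of the values above 0 in the former and 1.68% in the latter, and the start of the latter is 1 base higher at the same junction (808 pairs). Coordinates are printed as each entry gives them. Entries of 1 host were summed, with identifiers joined to symbols through a shared transcript. Intergenic entries (8.21 to 13.1% of a library's reads) have no host.

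Counts were tested with edgeR 4.0.16 in R 4.3.3 (TMM, 1 mean for each of 3 groups, robust quasi-likelihood, filterByExpr with minimum count 5 and total 15, FDR threshold 0.05). Relapse, with 2 libraries, borrows its spread from all 12. The test script was tested on simulated data. Ratios of pooled reads have exact 95% binomial intervals, which like the floors of 3 reads cover counting error only. Alternatives were DESeq2 1.42.0, limma-voom (limma 3.58.1), RLE factors, library totals, no filter or a minimum count of 10, 2 groups alone, symbol entries alone, a join by gene record, a replicate block, each library left out and, added after seeing the data, the SRPBM scale.

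Genes are named by a rule: the 20 most-read members, the most-read of each family, the 3 smallest p per comparison, the most-read junction of the 10 most-read members, the 2 junctions with the smallest p per comparison, and the 2 listed partners with the smallest p. Further junctions, and the hosts Sult2a2, Cyp4f, Aldh6a1 and Aldh7a1, are named after their values were seen. A host that the rule names is not reported here. The members and lists were chosen with earlier results of these data known.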

Additional observations from a re-analysis of the deposited data

Results flagged for a closer look

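In the named hosts, 45 groups of 5 libraries were examined for a library that stands apart from the 4 others, and 8 did so. The cutoff marks about 1 group in 20 for normally distributed values. These are sparse counts, where a group with reads in 1 library only is always marked. The 8 can therefore not be judged against that rate. Ces1d was high in sham 4 at 3660 RPM (73 reads), with the next sham library at 573 RPM, and in SG 5 at 3390 RPM (99 reads), with the next SG library at 425 RPM. In both libraries most of these reads came from ciRNA239. Adh6 was high in sham 1 at 1291 RPM (39 reads), with the next at 364 RPM. Gstm2 had 265 RPM in sham 1 (8 reads) and 0 in the other sham libraries.

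Ces1c was high in SG 4 at 328 RPM (10 reads), Cyp4a3 in SG 1 at 662 RPM (14 reads) and Cyp4a2 in SG 5 at 582 RPM (17 reads). Ugt1a3 had 53.9 RPM in SG 3, which is 1 read.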

How the results depend on the processing

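No enzyme host or junction passed under any alternative run. The 9 host fold changes followed were those of the 3 smallest p in each comparison. They kept their sign and stayed short of the threshold wherever the host was tested. The sign of the Ces1d fold changes was not followed in this way. The counts over all hosts were small and moved. In SG against sham, 2 became 1 with no filter or symbol entries alone and 0 with DESeq2, a minimum count of 10, 2 groups alone, the replicate block or the SRPBM scale, and 0 to 3 with 1 library left out. In relapse against SG, 2 became 1 by gene record or SRPBM scale and 0 with a minimum count of 10, 2 groups alone, symbol entries or the replicate block, and 0 to 4 with 1 library left out (4 without relapse 2). In relapse against sham, 1 became 3 with limma-voom or no filter, 2 with RLE factors or the gene record, 0 with 2 groups alone or the replicate block, and 0 to 4 with 1 library left out. Of all junctions, 0 passed, and with the replicate block 1, 2 and 1 did; with no filter 2 did in relapse against SG and 1 in relapse against sham. With 1 library left out these were 0 to 2, 0 to 9 and 0 to 8, the highest without relapse 1 in the first and relapse 2 in the others; the lone relapse library is then assumed to vary like the other groups. The cause of these moves was not tested.

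The enzymes' share of reads was 0.750% in sham, 0.738% in SG and 0.656% in relapse from symbol entries alone, 1.41, 1.46 and 1.42% by gene record, and 1.16, 1.12 and 1.18% when taken of reads with a named host. With 1 library left out it stayed at 0.979 to 1.07% in sham, 0.899 to 1.05% in SG and 1.04 to 1.09% in relapse. On the SRPBM scale the median of all hosts was 0.18, 0.08 and 0.26 in SG against sham, relapse against SG and relapse against sham. Libraries of the same replicate number showed no shared deviation (correlations -0.0715 to 0.0172). The counts are sparse and the 2 relapse libraries deviate as mirror images of each other, so this check cannot exclude a pairing. With 18176 to 37229 reads a library, 47 of the 71 hosts could not be tested.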

Other observations

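Further enzyme circles stood in the table under Ensembl identifiers that the naming rule does not reach. These were 23 entries of 9 identifiers with 2066 reads, which the table describes as enzymes of the same families. The most-read was described as Ugt2a3, a glucuronosyltransferase of bile acids and drugs, with 862 reads. That is more than any of the 71 hosts had by the rule, while Ugt1a3 had 2. Its levels were 2306 ± 1414 RPM in sham (SD, n = 5), 3898 ± 1758 in SG (n = 5) and 2821 ± 1064 in relapse (n = 2). Of its reads, 786 came from 1 intronic entry (ciRNA248, chr14:22340998-22379888, plus strand). That entry had 76, 82, 0, 25 and 38 reads in sham, 51, 42, 108, 149 and 83 in SG, and 62 and 70 in relapse. Identifiers described as Cyp2j10, Akr1c13 and Gstm1 had 6, 5 and 4 reads.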
